A study of Salmo salar with 31 samples.

Results

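Skin of Atlantic salmon post-smolts that had spent 1 month in an open net-pen at sea (net-pen 1M, 6 fish) was compared with skin of smolts taken in freshwater before transfer (7 fish). The samples were chosen by their labels only, as the open cage fish after 1 month and the freshwater smolts, and made up 13 of the 31 arrays of the series. The other arrays came from net-pen fish at 4 months (net-pen 4M) and from fish in a semi-closed containment system at 1 and 4 months (S-CCS 1M and S-CCS 4M), 6 fish each. All fish were smoltified under a controlled light regime and came from the same batch, with 1 fish per array. RNA was labelled with Cy3 and hybridized to a 15k salmon oligonucleotide array, on which each probe is called a feature.

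The comparison covers the step from freshwater to the first month at sea. Between both samplings the fish also grew and aged, and water temperature, season, feed and enclosure changed together with salinity, so these cannot be told apart here. The net-pen fish came from a single enclosure. P-values measure the spread between fish within groups, pooled over the 5 groups in limma, and not a spread between enclosures. Fish skin is a living barrier, with an epidermis of keratinocytes and mucous cells over a dermis of collagen and scales, and it also holds blood vessels and immune cells. Smoltification prepares a freshwater salmon for the sea, and transfer exposes the skin to salt water and to a new set of microbes and parasites. In whole skin, fewer cells of a type and less RNA per cell cannot be told apart.

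The files do not pair the probe IDs with genes, and 0 of them matched the 65341 genes of the reference table. The labelled tissue could therefore not be checked against skin markers, and no feature is given a gene name or a function here. Of 14841 features, 13549 carried an ID that begins with Ssa# and 1292 an ID that begins with Omy#. The scanner software marks spots whose signal is well above background, and the 14172 features so marked in 50% or more of the fish in some group were kept. Signals are background-subtracted intensities (arbitrary units), scaled so that all arrays had the same mean. Signals of different features are not comparable as amounts of RNA, because probes differ in how well they bind. The expression ratio (ER) is the signal of a feature divided by its mean over the 31 arrays, and log2-ER is its log2 after lowess correction, given here as net-pen 1M minus smolts. A log2-ER of 1 is a doubling of the signal.

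The arrays of both groups had a similar share of features well above background, 90.6% ± 3.51 in net-pen 1M and 90.4% ± 2.17 in smolts (SD, n = 6 and 7, two-sided exact permutation p = 0.931 over 1716 splits). The mean signal before scaling was 1690 ± 423 in net-pen 1M and 1550 ± 319 in smolts (exact permutation p = 0.499). Net-pen 1M fish 12 had the lowest share of features well above background (84.3%) and smolt fish 1 the lowest mean signal before scaling (915). On these measures neither was past the 95% limit of Dixon's outlier test, and counts are also given without each of them. The test was not run on the pair differences and principal components below, where smolt fish 1 stood apart from the other smolts. No array of net-pen 1M shared a slide with an array of another group, so a shift common to its slides cannot be told apart from the group. A fit with slide as a random block does not separate them either.

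Skin of net-pen 1M differed from that of smolts at 1194 features (8.43% of those tested) by the criteria of the study, an unadjusted p under 0.05 in limma and an absolute log2-ER above 0.8, which is 1.74-fold. Of these, 697 features (4.92%) were higher in net-pen 1M and 497 (3.51%) were lower. At a Benjamini-Hochberg adjusted p under 0.05, limma called 2653 features (18.7%), 1212 higher (8.55%) and 1441 lower (10.2%). All 6 net-pen 1M fish lay beyond all 7 smolts at 901 features (6.36%), above them at 380 (2.68%) and below them at 521 (3.68%). Without net-pen 1M fish 12 these counts were 1285 called, 2598 at the adjusted p and 1308 without overlap. Without smolt fish 1 they were 1253, 2790 and 1176. With slide as a random block they were 1203 called and 2857 at the adjusted p. Separation is easier to reach with fewer fish. The count without overlap rose whichever fish was left out, to between 941 and 1432.

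**Figure D1:**
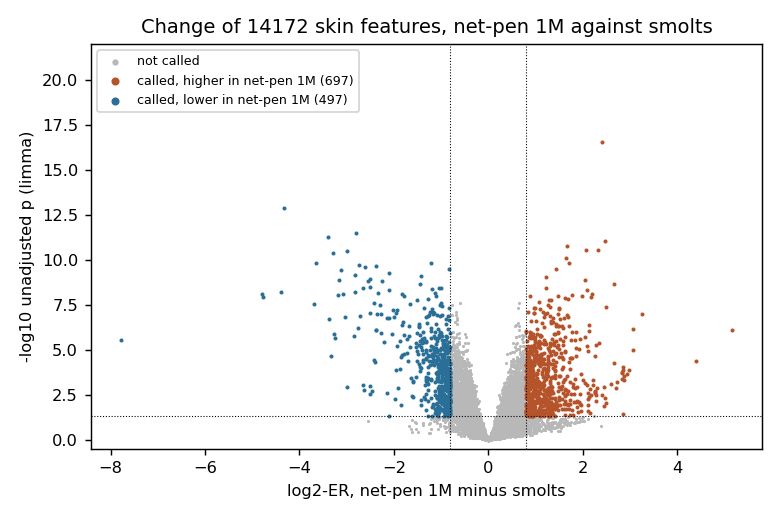
Each point is 1 of the 14172 features, with the log2-ER of net-pen 1M minus smolts on the horizontal axis and -log10 of the unadjusted limma p on the vertical axis. The 697 features called higher in net-pen 1M lie to the right and the 497 called lower to the left of the dotted lines at an absolute log2-ER of 0.8. The lowest value, -7.77, belongs to a feature at which fish 1 of net-pen 1M was within the smolt range. Among features without overlap the extremes are -4.79 and 5.16.

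The balance of raised and lowered features varied with the normalization. Higher features made up 58.4% of those called by the study's criteria, 45.7% of those at the adjusted p and 42.2% of those without overlap. Without lowess the shares were 44.3%, and 28.4% at the adjusted p, with 155 features above and 841 below all smolts. Quantile normalization without lowess gave 52.4%, and 38.7% at the adjusted p, with 275 features above and 628 below all smolts. No direction is therefore given for the transcriptome as a whole. The number called by the study's criteria also varied with the signal used. It was 876 with the deposited table, which holds the median signal minus local background. It was 403 with median signals corrected by normexp, a change of both signal and background correction. The normexp setting also added a constant to every signal, which draws the log2 ratios of dim features towards 0. At the adjusted p, limma called 3072 features under normexp, against 2653.

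The criteria overlapped in part. Of the 1194 called features, 985 (82.5%) also had an adjusted p under 0.05, which is 6.95% of all features tested. No overlap between the fish of both groups was found at 425 (35.6%) of the called features, 221 of them raised and 204 lowered. Over all features tested, 18.7% had an adjusted p under 0.05 and 6.36% had no overlap. The criteria use the same fish, which favours their overlap. Conversely, 1668 features passed the adjusted p with an absolute log2-ER of 0.8 or less. Of these small changes, 664 were upward and 1004 downward. The features just inside the limit of the study's criteria had log2-ER of 0.800127 and -0.800093, and those just outside 0.799823 and -0.798589.

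Relative to the array as a whole, most features changed little. Over all 14172 features the median log2-ER was 0.02, with the middle 50% between -0.25 and 0.31, the 5th percentile at -0.73 and the 95th at 0.90. Scaling and lowess hold this median near 0, and without lowess it was -0.07. The median standard error was 0.19. The median was 1.12 for features called higher and -1.03 for features called lower. Changes above 4-fold were found at 61 raised and 59 lowered features of those called. Changes above 8-fold were found at 5 raised and 19 lowered features, and changes above 16-fold at 2 raised and 5 lowered. Decreases were thus more frequent among changes above 8-fold, also without lowess (4 raised and 20 lowered) and under quantile normalization (4 and 17). This imbalance was not tested, and some of the lowered features had nearly the same profile, so they are not separate results.

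The called features were spread over the whole range of brightness. The kept features were split into quartiles by mean signal, with median signals of 17.5, 83, 309 and 1562. The dimmest quartile had 186 raised and 169 lowered features called, and the brightest had 207 raised and 85 lowered. Raised features made up 52.4%, 45.5%, 63.7% and 70.9% of those called, dimmest to brightest. Without lowess, which corrects for brightness, they were 48.3%, 38.5%, 43.5% and 45.9%, and the median log2-ER of all features in the brightest quartile was -0.15 in place of -0.01. Under quantile normalization without lowess they were 45.8%, 40%, 56.7% and 65.2%. The surplus of raised features among bright ones was thus found with lowess and with quantile normalization, and not when neither was applied. These splits were added after the data were seen. The share of features at an adjusted p under 0.05 was 11.4%, 16.5%, 23.4% and 23.7% in the same order, and the median standard error was 0.28, 0.19, 0.17 and 0.16. The standard error was thus largest where the signal was dimmest. These shares are descriptions, and differences between quartiles were not tested.

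**Figure D2:**
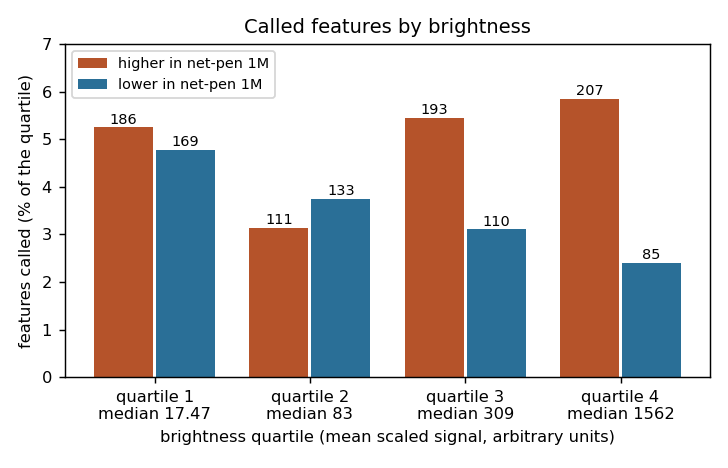
Bars give the percentage of features in each brightness quartile that were called higher (left bar) or lower (right bar) in net-pen 1M than in smolts, with the number of features above each bar. Each quartile holds 3543 features, and raised features outnumber lowered ones most in the brightest quartile, 207 against 85, which without lowess turned to 145 raised and 171 lowered.

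By ID prefix, 8.47% of the 12957 kept Ssa# features and 7.98% of the 1215 kept Omy# features were called. Raised features were 59.1% of the called Ssa# features and 50.5% of the called Omy# features. At the adjusted p the shares were 19.2% and 14.0%, and the median signal was 173 for Ssa# and 81.1 for Omy# features. These are descriptions of the array's content, and the difference between the prefixes was not tested.

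Detection changed little between the groups. Of the kept features, 12020 were well above background on all 13 arrays. In no case was a feature well above background in all fish of 1 group and in none of the other. In all 6 net-pen 1M fish but at most 3 of 7 smolts, 19 features were well above background, 12 of them with an adjusted p under 0.05 in limma. The opposite, all 7 smolts but at most 2 of 6 net-pen 1M fish, held for 6 features, 5 of them with an adjusted p under 0.05. Over all features, 18.7% had an adjusted p under 0.05. The features were chosen by detection on the same arrays, which favours a low p, so these counts are descriptions. Among the 1194 called features, 283 were not well above background on all 13 arrays. Of all 14172 kept features, 12020 were.

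Features were taken up individually only where the adjusted p was under 0.05 and the fish of both groups did not overlap. This gave 16 raised and 13 lowered features, as the 8 largest, the 4 with the lowest adjusted p and the 4 brightest in each direction. The leading ones are named by probe ID. The first, Ssa#S30269971, had the highest log2-ER of all features. Its signal was between 1018 and 26060 in net-pen 1M with a median of 2069, and between 43.9 and 362 in smolts with a median of 101. The log2-ER was 5.16 (standard error 0.82, adjusted p = 6.55e-05, limma), or 35.8-fold, and 3.62 under normexp. The increase was uneven, since fish 1 and 12 were at 26060 and 14490 and the other 4 fish of net-pen 1M at 2860 or less, yet the lowest of these was above the highest smolt.

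The increase with the lowest adjusted p was at Ssa#GRASP223648733. Its signal was between 37860 and 59620 in net-pen 1M (median 55710) and between 7255 and 11850 in smolts (median 9787). Its log2-ER was 2.40 (standard error 0.13, adjusted p = 3.89e-13, limma), a 5.29-fold difference. Here the fish were close together, with an SD of 0.28 in net-pen 1M and 0.22 in smolts on the log2 scale, and the 2 lowest net-pen fish, 11 and 12, were still above every smolt.

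The largest decrease without overlap was at Ssa#S35557995. Its signal was between 70.6 and 641 in net-pen 1M (median 113) and between 1903 and 16410 in smolts (median 6056). The log2-ER was -4.79 (standard error 0.60, adjusted p = 2.53e-06, limma), so the signal was 27.7-fold lower in net-pen 1M, and -4.02 under normexp. Fish 6 and 12 were at 641 and 615, and the other 4 net-pen fish were at 122 or less. A smaller but more even decrease was found at Ssa#CK895788, with signals between 55.4 and 316 in net-pen 1M (median 110) and between 1754 and 3799 in smolts (median 2452). The log2-ER was -4.33 (standard error 0.33, adjusted p = 9.36e-10, limma), or 20.1-fold lower, the lowest adjusted p among the decreases without overlap, and -3.16 under normexp. In net-pen 1M only fish 12 was above 145, and it was still below the lowest smolt.

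**Figure D3:**
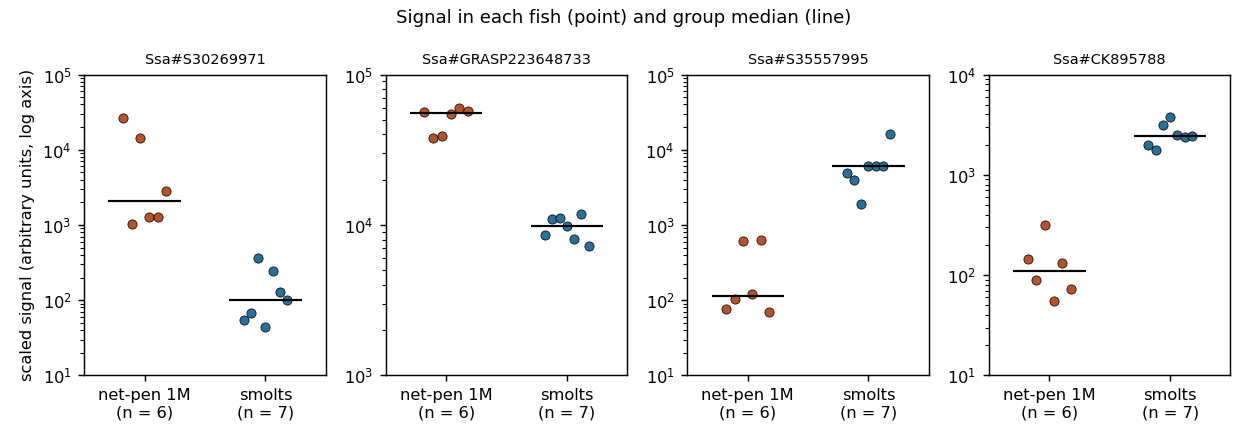
Points are the scaled signals of single fish on a log axis, in net-pen 1M (left, n = 6) and smolts (right, n = 7), and the line is the group median, for the 4 features given by ID. The groups do not overlap in any panel, and the spread within net-pen 1M is widest at Ssa#S30269971, where the signals run between 1018 and 26060.

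The 8 largest increases had log2-ER between 2.66 and 5.16, with adjusted p of 0.00242 or less in limma. Of these, 6 were well above background on all 13 arrays. One was well above background in no smolt and in 4 of 6 net-pen 1M fish. With the processed signal only an approximate bound was given for it, 2.39-fold higher in net-pen 1M or more. Its adjusted p of 0.00126 in limma rests on smolt signals that were not well above background. The bound sets the mean of all 6 net-pen 1M fish against the lowest signal that counted as well above background on each smolt array. Net-pen 1M fish not well above background entered with their measured signals, so the bound is not strict. Under normexp the log2-ER of this feature was 0.29 (adjusted p = 0.147, limma). The constant that normexp adds is large beside signals this dim, so that setting cannot decide on the bound. Another was well above background in all 6 net-pen 1M fish and in 2 of 7 smolts, with a median of 36.5 in net-pen 1M and 2.66 in smolts.

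The 8 largest decreases had log2-ER between -4.79 and -3.37, with adjusted p of 2.09e-05 or less, and 7 were well above background on all 13 arrays. The second of them was close to Ssa#S35557995 in its values, with a log2-ER of -4.77, a median signal of 119 in net-pen 1M and a median of 5369 in smolts. Of the features taken up individually, those with the lowest adjusted p had log2-ER of 1.66 to 2.47 on the raised side. On the lowered side they had log2-ER of -4.33 to -2.80.

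Among the brightest features, both raised and lowered ones were found. The 4 brightest raised features had medians between 63960 and 97810 in net-pen 1M and between 26200 and 44170 in smolts, with log2-ER between 1.26 and 1.56. Smolts spread widely at these features, with lowest values between 8824 and 14030, all in smolt fish 3. The 4 features rose and fell together over the smolts, so they are not separate results. Under normexp, 3 of the 4 no longer passed the adjusted p in limma, with 0.119, 0.123 and a value that rounds to 0.05. Neither did 2 dim features among the 8 largest increases, with 0.0652 and 0.147. For dim features the constant added by normexp favours such a loss. At the 3 bright features the cause of the loss was not tested. The 4 brightest lowered features had log2-ER between -4.39 and -0.81. The strongest of them was between 1022 and 19560 in net-pen 1M (median 2679) and between 38170 and 117200 in smolts (median 83650). Here fish 12 of net-pen 1M was at 19560 and the other 5 fish were at 4620 or less. For comparison, the 4 brightest features that were not called had log2-ER between -0.09 and 0.14. Their choice as not called favours small values.

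Some large changes were not shared by all fish. The lowest log2-ER of all 14172 features, -7.77 (standard error 1.33, adjusted p = 0.000153, limma), belonged to a feature at which 1 net-pen fish, fish 1, was within the smolt range. Its signal was between 21.2 and 122300 in net-pen 1M (median 135) and between 15820 and 143000 in smolts (median 68070). The highest log2-ER among features with overlap was 4.40 (standard error 0.91, adjusted p = 0.00107, limma), where only fish 11 of net-pen 1M was within the smolt range. Both were chosen after their values were seen.

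A few features followed the leading ones closely over the 31 arrays. The 3 features with the highest Pearson correlation with Ssa#S30269971 had r of 0.987, 0.942 and 0.878, and their log2-ER in net-pen 1M was 4.40, 2.61 and 0.96. The first of these was the increase above at which fish 11 overlapped the smolts. The 3 features most like Ssa#S35557995 had r of 0.998, 0.953 and 0.934 and log2-ER of -4.77, -3.69 and -2.50. Such values describe the likeness of profiles over arrays that share groups and slides.

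Over the called features, individual fish of net-pen 1M carried the common change to a similar extent. The mean log2-ER over the 697 raised features was between 1.18 and 1.38 in the net-pen 1M fish and between -0.571 and 0.454 in the smolts. Over the 497 lowered features it was between -1.57 and -1.10 in net-pen 1M and between -0.274 and 0.258 in smolts. These features were called on the same fish, which favours both the gap between the groups and the evenness within net-pen 1M. Both are descriptions. Fish 12 was the lowest of net-pen 1M over the raised features and had the smallest decrease over the lowered ones, whereas fish 7 had the largest decrease. Among smolts, fish 12 was nearest to the net-pen fish on both axes, and fish 1 was lowest over the raised features.

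**Figure D4:**
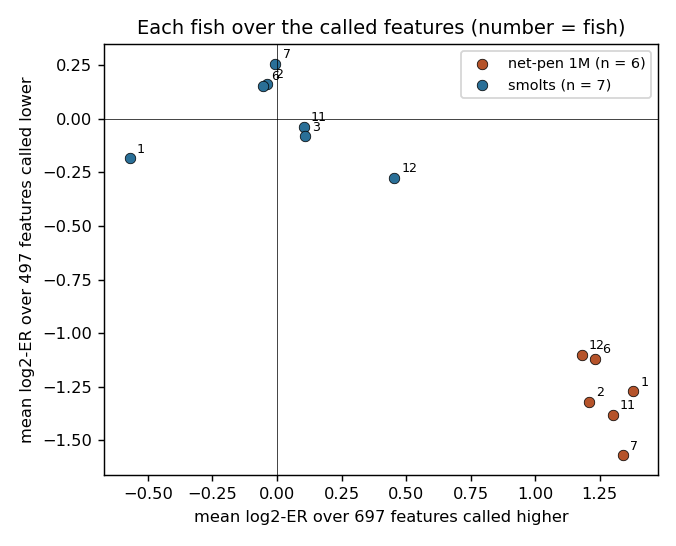
Each point is 1 fish, labelled with its number, with its mean log2-ER to the smolt mean over the 697 features called higher (horizontal axis) and the 497 called lower (vertical axis). The 6 net-pen 1M fish lie between 1.18 and 1.38 on the horizontal axis, and the 7 smolts spread from -0.571 to 0.454.

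Counted feature by feature, a net-pen 1M fish exceeded all smolts at 64.8% (fish 12) to 82.3% (fish 7) of the raised features. Of the lowered features, it was below all smolts at 69.6% (fish 12) to 89.3% (fish 7). Over all 14172 features, a net-pen 1M fish was above all smolts at 16.1% (fish 2) to 23.3% (fish 12) and below them at 18.1% (fish 6) to 24.6% (fish 7). Fish 12 was thus lowest over the called features but not over all features. A further 578 features had 5 of 6 net-pen 1M fish above all smolts, with fish 12 the exception at 204 and fish 11 at 197. On the lowered side there were 786 such features, with fish 11 the exception at 334 and fish 12 at 203. Fish 11 was the only array of the 13 that the scanner software had corrected for a spatial trend. With this correction undone on the arrays that carried it, 1101 features were without overlap, and without fish 11 the number was 1432. With 1 fish fewer, separation is easier to reach.

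By the median SD over features the spread between fish was similar in both groups, 0.352 in net-pen 1M and 0.331 in smolts on the log2 scale. The median absolute difference between a net-pen 1M fish and a smolt was between 0.282 and 0.594 over the 42 pairs. Between fish of net-pen 1M it was between 0.207 and 0.285 for 2 of the 3 pairs on a shared slide and 0.561 for fish 11 and 12, against 0.257 to 0.459 for the 12 pairs on different slides. Between smolts it was 0.235 to 0.467 on a shared slide (3 pairs) and 0.191 to 0.518 on different slides (18 pairs). All smolt pairs with fish 1 were at 0.441 to 0.518, and all other smolt pairs at 0.191 to 0.329. The medians were 0.42 between the groups, and 0.39 within net-pen 1M and 0.27 within smolts for pairs on different slides. The ranges overlapped, and 2 pairs of fish from different groups were further apart than any pair of the same group. In a principal component analysis of the 13 arrays, the first component held 25.9% of the variance, with net-pen 1M fish at 7.69 to 39.4 and smolts at -92.4 to 1.3. Smolt fish 1 was at -92.4 and the other smolts were at -35 or above, so this component also set that fish apart. The second component held 20.8%, with net-pen 1M fish at 4.82 to 47.5. On it smolt fish 1 was at 42.7 and the other smolts were at -53.5 to 1.56.

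Net-pen 1M was further set against S-CCS 1M, the other system at the same time, and against net-pen 4M, the same system later. All are ratios to the same 7 smolts, so the changes of the groups share their errors and are given side by side. At the 697 raised features the median log2-ER to smolts was 1.12 in net-pen 1M, where they were chosen. It was 0.73 after 4 months in the net-pen, and 0.64 and 1.08 after 1 and 4 months in S-CCS. At the 497 lowered features the medians were -1.03, -0.74, -0.53 and -0.68 in the same order. Over all kept features the median was between -0.01 and 0.02 in each group, where the processing holds it near 0. Being chosen on net-pen 1M, the features are set to be further from 0 there.

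At an adjusted p under 0.05 in limma, net-pen 1M differed from S-CCS 1M at 912 of all features (6.44%) and from net-pen 4M at 1107 (7.81%). Net-pen 1M was higher at 446 and lower at 466 of the former, and higher at 386 and lower at 721 of the latter. Among the 697 raised features, 83 were higher and 0 lower in net-pen 1M than in S-CCS 1M. Among the 497 lowered ones, 0 were higher and 110 lower in net-pen 1M. Against net-pen 4M, 73 of the raised features were higher and 20 lower in net-pen 1M, and 6 of the lowered features were higher and 106 lower. The choice of the features favours this direction.

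The 4 features given by ID differed in how the other groups stood. Ssa#S30269971 had log2-ER to smolts of 5.16 and 6.24 in the net-pen after 1 and 4 months, and of 1.66 and 6.19 in S-CCS. It was higher in net-pen 1M than in S-CCS 1M by 3.50 (adjusted p = 0.0179, limma), but without net-pen 1M fish 12 this was 3.05 with an adjusted p of 0.0522. Its difference of -1.08 between net-pen 1M and net-pen 4M did not pass the test (adjusted p = 0.466). Ssa#GRASP223648733 had log2-ER of 2.40 and 2.57 in the net-pen after 1 and 4 months and of 1.60 and 2.14 in S-CCS. It was higher in net-pen 1M than in S-CCS 1M by 0.81 (adjusted p = 0.00202).

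At the lowered features given by ID, the differences from net-pen 4M passed the test and those from S-CCS 1M did not. Ssa#S35557995 had log2-ER to smolts of -4.79 and -0.85 in the net-pen after 1 and 4 months, and of -4.22 and -1.45 in S-CCS. It was lower in net-pen 1M than in net-pen 4M (log2-ER difference -3.94, adjusted p = 0.000185, limma), while the difference of -0.57 from S-CCS 1M did not pass the test (adjusted p = 0.598). Ssa#CK895788 had log2-ER of -4.33 and -2.24 in the net-pen, and of -3.90 and -3.12 in S-CCS, at 1 and 4 months. Its difference between net-pen 1M and net-pen 4M was -2.09 (adjusted p = 0.000311), and that from S-CCS 1M was -0.43 (adjusted p = 0.447).

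Of the 29 features taken up individually, 3 of the 16 raised and 0 of the 13 lowered differed from S-CCS 1M at an adjusted p under 0.05 in limma. From net-pen 4M, 2 of the 16 raised and 8 of the 13 lowered differed, and all of these were nearer to smolts in net-pen 4M. Over all features, 6.44% differed from S-CCS 1M and 7.81% from net-pen 4M. The 29 features were chosen for their change in net-pen 1M, which favours this direction. Some of the lowered ones had nearly the same profile, and the 4 brightest raised ones rose and fell together over the smolts. Such features are not separate results. Over the 16 raised features the median log2-ER was 2.56 and 1.66 in the net-pen at 1 and 4 months, and 1.64 and 2.20 in S-CCS. Over the 13 lowered features it was -3.39 and -1.14 in the net-pen, and -2.71 and -1.54 in S-CCS.

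**Figure D5:**
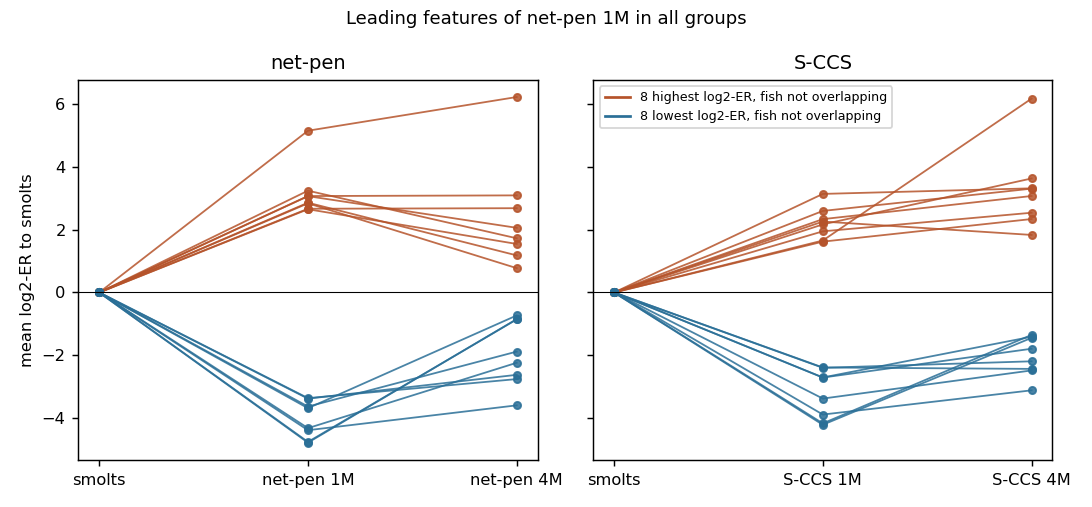
Lines are the 8 largest increases and 8 largest decreases of net-pen 1M among features whose fish did not overlap the smolts, plotted as mean log2-ER to smolts at 0, 1 and 4 months in the net-pen (left panel) and in S-CCS (right panel). The lowered features lie between -4.79 and -3.37 in net-pen 1M and between -3.60 and -0.73 in net-pen 4M.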

How the data were processed

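RNA of skin, 1 fish per array, was hybridized to 31 arrays on 10 slides, scanned on 1 day. The labels and the methods of the study name different RNA extraction kits. Scanner output of each array (Feature Extraction 12.0.1.1) was deposited, and their background-subtracted processed signal was taken as the intensity of a spot. On 7 arrays it had been divided by a spatial trend. A deposited table of processed values holds intensity too. It equals the median signal minus local background up to a constant factor for each array (log2 SD 0.00102 to 0.00133 over values of 200 or more) and served as an alternative. Differences in log2 were computed here and were not among the deposited values.

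An array had 15377 spots, 536 of them controls, and no probe was repeated. No feature was saturated. In the 14172 kept features, 145 values marked as outliers or non-uniform were left out. Mean intensities of the arrays were equalised, signals were divided by the feature's mean over arrays, and log2 ratios were corrected by lowess against mean log2 intensity with a span of 0.3. The methods name these steps and the criteria for calling, and not the test, the signal or the span. A fit of 5 groups over 31 arrays was made with limma 3.58.1 in R 4.3.3, with Benjamini-Hochberg adjustment over 14172 features for each comparison. Files were read with Python 3.11.15, numpy 2.4.6 and pandas 2.3.3, and figures were drawn with matplotlib 3.10.9. The steps were tested on simulated data. The number of arrays limits the precision.

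Features were named among those with an adjusted p under 0.05 and no overlap between fish. They were the 8 largest, the 4 with the lowest adjusted p and the 4 brightest in each direction. Of these, 2 in each direction are printed by ID. The brightest 4 features not called, those nearest to the limit of 0.8 and the 3 profiles most like each leading feature were added. The comparison, the criteria and this rule were chosen with earlier results of these data known. Alternatives were other scalings, normexp (planned on mean signals, run on median signals), no lowess or another span, the deposited table, detrending undone, other filters, array weights, other variance estimates, fish number or slide as a block, other criteria and each fish left out. Normexp was run with a constant added to every signal. The splits by brightness and size without lowess or with quantile normalization were chosen after seeing the data. Gene lists and skin markers were not analysed here, because probe IDs matched no gene.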

Additional observations from a re-analysis of the deposited data

Results flagged for a closer look

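At the 4 features given by probe ID, the change from smolts differed between net-pen 1M and another group by limma's test of the difference itself. These features were chosen for their change in net-pen 1M, so a difference towards a larger change there is favoured by the choice. For Ssa#S30269971 the change in net-pen 1M exceeded that in S-CCS 1M by 3.50 (adjusted p = 0.0179), and over 26 alternative settings the difference was between 2.89 and 3.88, with adjusted p between 0.00514 and 0.0522. For Ssa#GRASP223648733 the change in net-pen 1M exceeded that in S-CCS 1M by 0.806 (adjusted p = 0.00202), with differences between 0.72 and 0.95 over the alternatives and adjusted p up to 0.0323. For Ssa#S35557995 the difference between net-pen 1M and net-pen 4M was -3.94 (adjusted p = 0.000185), and between -4.35 and -3.46 over the alternatives, with adjusted p up to 0.000941. For Ssa#CK895788 the difference between net-pen 1M and net-pen 4M was -2.09 (adjusted p = 0.000311), and between -2.46 and -1.58 over the alternatives, with adjusted p up to 0.00558.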

How the results depend on the processing

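The count of features called by the study's criteria was 1194, and 403 under normexp on median signals and 713 with an absolute log2-ER above 1. It was between 876 and 1366 under the other settings run, and between 1079 and 1381 with each fish left out. The count at the adjusted p was 2653, and 4258 with array weights. It was between 2062 and 3382 under the other settings, and between 2071 and 2887 with each fish left out. The count without overlap was 901, between 839 and 1101 under the settings run, and between 941 and 1432 with each fish left out, the highest without net-pen 1M fish 11. For fewer fish, separation is easier to reach. Features well above background in all fish of 1 group and none of the other numbered 0, and 3 when detection was set at the negative controls plus 2 SD, and between 0 and 4 with each fish left out. The difference in the share of features well above background, net-pen 1M minus smolts, was 0.139 percentage points, and -4.42 (exact permutation p = 0.0944) with the threshold at the negative controls. With each fish left out it was between -0.603 and 1.40, with negative values of -0.327, -0.603 and -0.0616 without net-pen 1M fish 1, 11 and 7, and of -0.109, -0.0472 and -0.491 without smolt fish 1, 2 and 3. The causes were not tested.

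Fish share numbers between the groups. Deviations of same-numbered fish correlated with r between -0.253 and 0.0812 over 6 pairs, so that the numbers gave no pairing, and 0 net-pen 1M fish correlated best with the smolt of its own number. With fish number as a block, 1229 features were called and 2315 passed the adjusted p. With slide as a random block the correlation within slides was -0.0362. The values of the 29 features taken up individually were recomputed 780 times. Of these values, 775 kept direction and side of the threshold, 5 lost the adjusted p, all under normexp, and 0 changed direction. The features were chosen as extremes without overlap on the same arrays, which favours this outcome. Their size moved more. The fold change of 17 of the 29 was over 1.5 times nearer to 1 under normexp, down to a log2-ER of 0.29 for the smallest. The constant added by normexp favours this for dim features. Of the 5 losses of the adjusted p, 3 were among the 4 brightest raised features, where the cause was not tested. Under the other settings 4 values moved by over 1.5 times, 3 with the deposited table and 1 with array weights. Over all features, the median standard error was largest in the dimmest quartile. For the feature well above background in no smolt only an approximate bound was given. Normexp cannot decide on this bound because of the constant it adds.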
